A study of Mus musculus with 7 samples.

Results

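The fragment pairs described here lie in the region assayed around Oct4 (Pou5f1) in mouse cells, and their ends are at most 1 Mb apart. They were taken from the table of contact counts by region name and distance, with no use of the counts, and there were 16574 of them among 22344 Oct4 pairs and 86767 pairs in all. The assay was 5C (carbon copy chromosome conformation capture), run on 2 libraries of embryonic stem (ES) cells and 2 libraries of neural progenitor cells (NPCs). The ES cells were the male V6.5 line from a cross of the strains 129SvJae and C57BL/6, grown with LIF and taken off feeder cells, and the NPCs were derived from the same line. For the NPCs, embryoid bodies were formed over 4 days without LIF, selected for 5 to 7 days in the serum-free medium ITSFn and expanded for 2 to 4 days with Fgf2 at 10 ng/ml. Both cell types were fixed with 1% formaldehyde, and nothing in the table measures a marker gene, so the cell type labels could not be checked in these libraries. Replicate numbers are given by the labels, but separate cultures are not, so the p-values below measure only the spread between libraries, which may be technical.

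Oct4 is a transcription factor that ES cells need to remain pluripotent, and its gene is shut down as they differentiate towards the neural lineage. In 5C, crosslinked chromatin is cut with the restriction enzyme HindIII and ligated, so that fragments that were close in the nucleus become joined. Forward primers on some fragments and reverse primers on others are then joined across each ligation junction and sequenced, and the reads of a forward and reverse pair count how often those fragments were joined. Contacts become rarer as the distance along the chromosome grows, and contacts more frequent than their distance predicts are found at loops, many of them between sites bound by CTCF and cohesin, and within domains.

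The 16574 pairs joined 147 forward to 152 reverse fragments (299 in all), which spanned 2099 kb. Fragments are named here by primer type and number (FOR024 is the forward fragment 24), and their positions are given in kb from the first assayed fragment, as rebuilt from the distances in the table. The position of the Oct4 gene within this span was not used here. Totals over the whole table ran from 8236666 reads in ES replicate 2 to 42673906 in NPC replicate 2. The Oct4 pairs up to 1 Mb held 6159993 and 5803232 reads in the ES libraries, against 8399853 and 24417548 in the NPC libraries, or 57.3%, 70.5%, 52.8% and 57.2% of each library. Across these pairs, log2(reads + 1) correlated with a Pearson r of 0.936 for the pair of ES libraries, 0.845 for the pair of NPC libraries and 0.778 to 0.848 across cell types (16574 pairs of the same fragments, which are not independent). The 2 pairs with most reads among those nearest to the limit were FOR406-REV154 (998 kb; 69 and 124 reads in ES cells, 388 and 455 in NPCs) and FOR372-REV123 (998 kb; 4, 25, 1 and 65 reads) inside it. Just outside, FOR467-REV203 (1001 kb) had 18, 4, 39 and 129 reads and FOR135-REV386 (1001 kb) had 46, 17, 11 and 110.

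A few pairs held much of the region's reads. FOR024-REV005, whose ends at 103 and 14.5 kb were 88.8 kb apart, had 2470731 and 2870923 reads in the ES libraries, against 2274097 and 9079305 in the NPC libraries. FOR406-REV190 joined fragments at 1712 and 856 kb, a distance of 856 kb, and had 746767 and 1510188 reads in ES cells and 307109 and 1196478 in NPCs. FOR024-REV025, with ends separated by 2.45 kb, had 34096 and 10980 reads in ES cells and 547682 and 1324170 in NPCs. These 3 pairs together took 52.8% (95% Wilson binomial interval 52.7 to 52.8%) and 75.7% (75.6 to 75.7%) of the reads of the Oct4 pairs up to 1 Mb in the ES libraries. In the NPC libraries they took 37.2% (37.2 to 37.3%) and 47.5% (47.5 to 47.5%). Both ES shares lay above both NPC shares, and the intervals cover counting error only. Of the whole libraries, the 3 pairs took 30.3% and 53.3% in ES cells and 19.7% and 27.2% in NPCs. In each ES library 2 pairs were enough to reach 50% of the reads, against 15 and 5 in the NPC libraries. Without the 3 pairs the order turned: 247 and 326 pairs reached 50% of the remaining reads in ES cells, against 105 and 115 in NPCs.

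**Figure D1:**
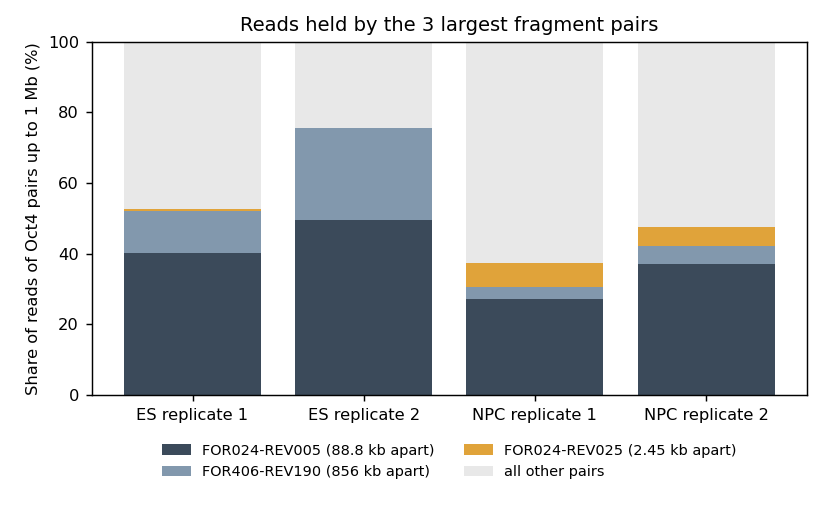
Share of the reads of Oct4 pairs up to 1 Mb (vertical axis, %) in the 3 largest pairs and in all other pairs, one bar for each library. The 3 pairs take 52.8% and 75.7% in the ES libraries, against 37.2% and 47.5% in the NPC libraries, and FOR024-REV025 takes 0.554% and 0.189% in the ES bars and 6.52% and 5.42% in the NPC bars.

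Such shares move any scaling by total reads, so reads were scaled with edgeR's trimmed mean of M-values (TMM), and scaled reads below are reads brought to the library size of ES replicate 2. The TMM library size was 1.22 and 1.07 times the total in the ES libraries, against 1.02 and 0.722 times in the NPC libraries. When TMM was computed without the 3 largest pairs, the size was 1.14, 1.43, 0.830 and 0.689 times a total that also left them out. On the main scale, FOR024-REV005 came to 1651836 and 2870923 scaled reads in ES cells and 1229522 and 2587978 in NPCs, and the groups overlapped (log2 fold change of NPC over ES -0.24 ± 1.27 SE, edgeR adjusted p = 0.915). FOR406-REV190 had 499260 and 1510188 scaled reads in ES cells, above both NPC values of 166043 and 341046 (log2 fold change -1.99 ± 1.19 SE, edgeR adjusted p = 0.2996). FOR024-REV025 had 22795 and 10980 scaled reads in ES cells and 296112 and 377443 in NPCs (log2 fold change 4.32 ± 1.07 SE, edgeR adjusted p = 0.04996, just under the threshold of 0.05). Only the last of these 3 pairs passed the edgeR test, and it lost the call in 7 of the 19 alternative settings.

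The pairs next to the largest ones set them apart. For each pair, the 8 pairs that join the same or the next assayed fragment on either side were read out. Around FOR406-REV190, the highest of the 8 had 21 and 14 reads in the ES libraries, against 29 and 51 in the NPC libraries, at least 10590 times fewer than the pair itself in every library. Around FOR024-REV005 the highest neighbours had 1120, 595, 3070 and 12673 reads, so the pair exceeded them 716 to 4825 times. Around FOR024-REV025, in contrast, the highest neighbour reached 12384, 5344, 240248 and 530995 reads, 2.05 to 2.75 times fewer than the pair. The first 2 pairs thus stood alone among their neighbours in all 4 libraries, and the third was part of a stretch of high counts. The 5 other pairs with most reads at 500 kb or more were chosen after their values were seen. FOR354-REV116 (960 kb) had 7235 and 7204 reads in ES cells and 90998 and 197931 in NPCs, 482 to 2401 times its highest neighbour. FOR301-REV437 (543 kb) had 37516, 72527, 18744 and 46801 reads, 71.5 to 571 times its highest neighbour. FOR186-REV054 (582 kb) had 85785 and 57241 reads in ES cells and 9463 and 21694 in NPCs, 95.6 to 1100 times its highest neighbour, and was lower in NPCs (log2 fold change -3.34 ± 0.79 SE, edgeR adjusted p = 0.046). FOR447-REV235 and FOR447-REV237 (820 and 816 kb) are each other's neighbours, so that for these 2 the high reads extended over adjacent fragments. FOR447-REV235 had 46208 and 11108 reads in ES cells and 48984 and 54522 in NPCs, and its neighbour had 3319, 1711, 11220 and 30126.

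The share of reads by distance depended on the 3 largest pairs. With all pairs, the band from 500 to 1000 kb held 17.5% and 30.2% of the reads in ES cells and 9.56% and 9.05% in NPCs, and the bands under 50 kb held less in ES cells. From 10 to 50 kb the shares were 10.6% and 5.15% in ES cells and 18.5% and 15.7% in NPCs. Without the 3 pairs, the shares from 10 to 50 kb were 22.5% and 21.2% in ES cells and 29.5% and 29.9% in NPCs, a mean difference of 7.82 percentage points with no overlap of the groups. From 500 to 1000 kb they were 11.5% and 17.4% in ES cells and 9.41% and 7.91% in NPCs, a mean difference of -5.77 percentage points and again no overlap. Under 10 kb the difference went from 9.53 percentage points with all pairs (NPC mean 19.1% ± 1.51 SD, ES mean 9.61% ± 6.38 SD, n = 2 each) to -1.51 without the 3 pairs, where the groups overlapped. From 50 to 100 kb it went from -9.44 to 0.67, and from 100 to 250 kb from 3.93 to -0.09. These shares were not tested.

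The median over pairs is not moved by a few large pairs, and at long distance it was lower in both NPC libraries than in both ES libraries, while the upper pairs were higher. Under 10 kb the median of the 305 pairs was 697 and 416 scaled reads in ES cells and 579 and 750 in NPCs. From 100 to 250 kb (2928 pairs) it was 36.8 and 36 in ES cells and 27.0 and 32.8 in NPCs, and from 500 to 1000 kb (7003 pairs) 4.01 and 5.00 in ES cells and 2.16 and 1.14 in NPCs. The NPC libraries were thus within or near the range of the ES libraries at short distance and below both at long distance. The 90th percentile went the other way: among the 3646 pairs around 841 kb it was 20.7 and 20 scaled reads in ES cells and 29.7 and 35.3 in NPCs, and among the 3340 around 604 kb 36.8 and 32 against 44.9 and 50.5. Pairs without a single read followed the medians: from 500 to 1000 kb 11.4% and 15.6% had 0 reads in the ES libraries, against 27.4% and 33.5% in the NPC libraries, although the NPC libraries were the more deeply sequenced. Over all distances, 654 of the 16574 pairs had 0 reads in both NPC libraries and at least 1 in both ES libraries, and 71 showed the opposite. Pairs at 0 reads were not counted in the other regions here, so these counts are not known to be particular to Oct4. A pair at 0 reads is only known to lie under the limit of 3 reads that a count of 0 allows.

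Between 10 kb and 1 Mb, the slope of log10(scaled reads + 1) against log10 distance over 16269 pairs was -1.11 and -1.06 in the ES libraries, against -1.15 and -1.23 in the NPC libraries. Both NPC slopes were steeper, by 0.105 on average (NPC minus ES, -0.105), with p = 0.3333 in a two-sided exact permutation test, the smallest value that 2 against 2 libraries can give. Without the 3 largest pairs the slopes were -1.11, -1.06, -1.15 and -1.21, and the mean difference was -0.0942 (p = 0.3333, exact permutation test). Leaving out the pairs with 0 reads in any library reduced the difference to -0.0378, library totals to -0.0584 and the loss of NPC replicate 2 to -0.0654, and without the pairs at 0 reads the groups overlapped (-0.851 and -0.794 in ES cells, -0.843 and -0.879 in NPCs). In the other 6 regions of the table the same difference ran from -0.364 in the gene desert (508 pairs) to 0.120 around Nanog, so the Oct4 value lay inside their range.

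**Figure D2:**
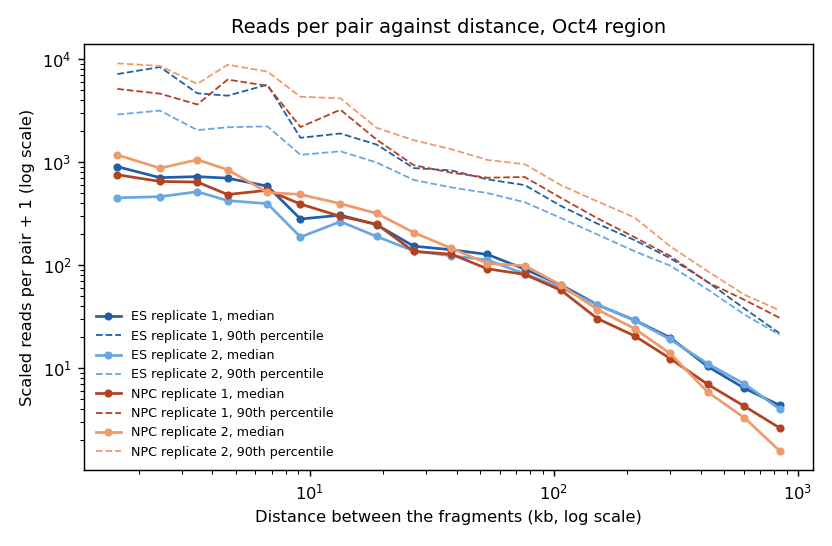
Scaled reads per pair plus 1 (vertical axis, log scale) against the distance between the fragments (horizontal axis, kb, log scale) for Oct4 pairs up to 1 Mb, as the median (solid) and 90th percentile (dashed) of pairs in distance bins, one colour for each library. At short distance the medians of the 4 libraries spread without order by cell type (901, 448, 752 and 1172 scaled reads in the first bin). From the bin at 151 kb on, the NPC medians lie below the ES medians, to 1.62 and 0.570 against 3.34 and 3.00 in the last bin, where the 90th percentiles of the NPC libraries lie above those of the ES libraries.

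Single pairs were then compared between ES cells and NPCs. Of the 16574 pairs, 10800 had a mean of at least 10 reads and were tested with edgeR's quasi-likelihood test within a fit of all 46967 such pairs of the table, and 5774 were not. At an adjusted p under 0.05, 448 were higher in NPCs (4.15% of those tested; 4.9% of all pairs tested in the table) and 320 were higher in ES cells (2.96%; 2.33% of all pairs tested). Both shares were near those of the whole table. The median log2 fold change was 0.08, beside 0.12 over all pairs, and 3119 of the 10800 had an unadjusted p under 0.05. The smallest called log2 fold change was 2.01 among pairs higher in NPCs and -1.94 among pairs higher in ES cells, so smaller changes were not called at this depth and spread. With library totals in place of TMM, a scaling that moved the median over the whole table to -0.29, 188 were higher in NPCs against 348 higher in ES cells, and with totals that left out the 3 largest pairs 310 and 1173 were. With TMM over all pairs before the filter on reads, 377 and 153 were called. With reads thinned to an equal depth outside the 3 pairs, the counts were 788 and 863. All 768 calls kept their direction under both library totals, and TMM without the 3 largest pairs gave 502 and 371 calls. The count moved widely with one library left out, as given at the end. Such a fit has 1 library in a group, so its spread comes from the other group alone. These counts therefore cannot show whether single libraries carried the calls. When each pair was compared after allowing for the change of its 2 fragments as a whole, no pair was called, and 1363 had an unadjusted p under 0.05.

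The filter was set on the mean of the 4 libraries, so a pair could pass it through the reads of one cell type alone. At least 10 reads in each library were found for 352 of the 448 pairs higher in NPCs. The same held for 211 of the 320 higher in ES cells, beside 7192 of the 10800 tested. Among the pairs higher in NPCs, the 5 with the lowest p had at most 27 reads in either ES library. FOR326-REV396 (315 kb) had 11 and 1 reads in the ES libraries, against 3038 and 5315 in the NPC libraries (log2 fold change 8.43 ± 0.90 SE). FOR326-REV154 (655 kb), which shares the forward fragment at 1369 kb, had 2 and 2 reads in ES cells and 915 and 1308 in NPCs, a ratio of 259 with a counting interval of 101 to 951. FOR034-REV035 joined fragments separated by only 2.93 kb and had 7 and 2 reads in ES cells and 1706 and 3693 in NPCs (log2 fold change 8.11 ± 0.74 SE). Its reads were 0.00672 and 0.00481 times the median of the pairs under 10 kb in the ES libraries, against 1.59 and 1.404 times in the NPC libraries. Relative to the level of its 2 fragments and its distance it was low in all 4 libraries, with residuals of -10.3 and -9.81 log2 units in ES cells and -4.35 and -5.67 in NPCs. FOR366-REV207 (585 kb) had 17 and 18 reads in ES cells, 2.83 and 3.60 times the median of the pairs from 500 to 1000 kb, and 1852 and 4752 in NPCs (log2 fold change 6.34 ± 0.66 SE). FOR021-REV188 (757 kb) had 27 and 22 reads in ES cells, 4.50 and 4.40 times that median, and 1269 and 2349 in NPCs (log2 fold change 5.08 ± 0.57 SE). All 5 had an edgeR adjusted p of 0.0225, and in none did the groups overlap.

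The pairs with the largest fold changes among those with at least 10 reads in each library covered a wide range of levels. FOR063-REV025 (196 kb) had 1376 and 424 reads in ES cells and 62645 and 133674 in NPCs, that is 920 and 424 scaled reads against 33870 and 38103 (log2 fold change 5.74 ± 0.90 SE, edgeR adjusted p = 0.0247). FOR470-REV412 (229 kb) had 488 and 141 reads in ES cells and 30405 and 68724 in NPCs (log2 fold change 6.27 ± 0.87 SE, edgeR adjusted p = 0.0225). The same forward fragment at 1959 kb also gained with REV396 (274 kb; 45 and 12 reads against 1742 and 3545, log2 fold change 5.51 ± 0.68 SE). FOR354-REV121 (929 kb) had 13 and 10 reads in ES cells and 1441 and 1171 in NPCs (log2 fold change 5.89 ± 0.70 SE). These gains covered distances from 196 to 929 kb.

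Pairs higher in ES cells included several that share a fragment near 780 kb. FOR344-REV196 (562 kb) had 618 and 356 reads in ES cells and 2 and 5 in NPCs, despite the deeper NPC libraries (log2 fold change -8.15 ± 0.67 SE, edgeR adjusted p = 0.0225). FOR193-REV171 (91.2 kb) had 321 and 179 reads in ES cells and 26 and 33 in NPCs (log2 fold change -4.08 ± 0.56 SE). FOR215-REV171 (193 kb) had 554 and 258 reads against 52 and 75 (log2 fold change -3.67 ± 0.54 SE), and FOR173-REV171 (10.0 kb) had 1394 and 550 against 107 and 90 (log2 fold change -4.16 ± 0.66 SE). REV171 at 778 kb is thus an end of 3 of the pairs named here, which share its reads. FOR078-REV028 (259 kb) had 210 and 161 reads in ES cells and 21 and 33 in NPCs (log2 fold change -3.86 ± 0.56 SE). At shorter distance, FOR281-REV283 (13.9 kb) had 636 and 298 reads in ES cells and 44 and 26 in NPCs (log2 fold change -4.56 ± 0.71 SE). FOR387-REV398 (68.8 kb), FOR173-REV196 (98.0 kb) and FOR004-REV003 (1.35 kb) had log2 fold changes of -5.03, -4.22 and -4.21. The edgeR adjusted p of the pairs in this paragraph lay between 0.0225 and 0.0361.

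**Figure D3:**
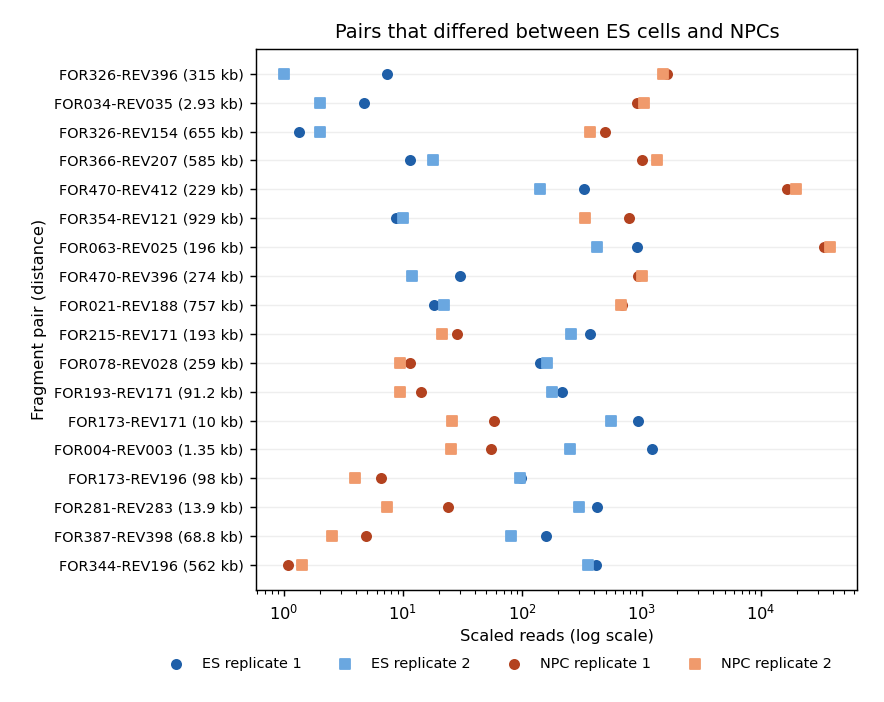
Scaled reads (horizontal axis, log scale) of the named pairs that differed between ES cells and NPCs, one row for each pair with its distance in kb and one point for each library. In every row both NPC points lie on one side of both ES points, from FOR326-REV396 at the top (7.35 and 1.00 against 1643 and 1515 scaled reads) to FOR344-REV196 at the bottom (413 and 356 against 1.08 and 1.43).

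The share of called pairs differed between stretches of the region. Of the 2005 tested pairs centred between 1200 and 1500 kb, 136 (6.78%) were higher in NPCs against 46 (2.29%) higher in ES cells. Between 600 and 900 kb the order was the other way, with 54 (2.54%) of 2128 higher in NPCs against 96 (4.51%) higher in ES cells. The median log2 fold change was 0.38 in the first of these stretches and -0.27 in the second. Under 10 kb, 27 of 305 pairs (8.85%) were higher in NPCs against 10 (3.28%) higher in ES cells, and over all regions of the table the shares at this distance were 8.64% and 4.40%. From 500 to 1000 kb, 119 of 3050 tested pairs were higher in NPCs against 36 higher in ES cells (3.902% and 1.18%, beside 4.02% and 1.01% over all regions), with a median log2 fold change of 0.39 (0.42 over all regions). This is the opposite of the medians over all 7003 pairs of that band given above. The minimum of 10 reads was set on the mean of unscaled reads, to which the deeper NPC libraries add more. In this band 3953 pairs did not meet it, so its calls and its median fold change describe only the pairs that passed. Why the tested pairs and the medians over the band differ was not tested.

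Each fragment's reads were then summed over its pairs up to 1 Mb. Each of the 299 fragments had 65 to 149 such pairs, and all were tested with edgeR in a fit of 1464 fragments of all regions. At an adjusted p under 0.05, 90 fragments (30.1%, beside 26.1% of all fragments tested) were higher in NPCs. In ES cells 72 (24.1%, beside 26.3% of all fragments tested) were higher. Both shares were near those of the whole table. With library totals in place of TMM 35 and 46 were called, and without the 3 largest pairs 92 and 68. A fragment's sum holds both its contacts and how well its primer and its ends were recovered, and the 2 cannot be told apart in a sum. Each pair adds to 2 fragments, so fragments are not independent. Scaled reads of fragments use the fit's own library sizes, with factors of 0.535, 1, 0.427 and 0.197 in place of 0.669, 1, 0.541 and 0.285 for pairs, so the 2 scales cannot be set side by side.

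Among the fragments higher in NPCs, REV025 at 106 kb changed most. Its reads were 121153 and 39533 in ES cells and 1378902 and 3031651 in NPCs, or 64872 and 39533 scaled reads against 588531 and 598365 (log2 fold change 3.51 ± 0.78 SE, edgeR adjusted p = 0.000609). It took 1.97% and 0.681% of the reads of Oct4 pairs up to 1 Mb in ES cells and 16.4% and 12.4% in NPCs. Its largest pair, FOR024-REV025, held 28.1% and 27.8% of its reads in ES cells and 39.7% and 43.7% in NPCs. Without the 3 largest pairs its log2 fold change was still 3.23 ± 0.64 SE (edgeR adjusted p = 0.000169). REV449 at 1863 kb had 2688 and 1523 reads in ES cells and 21176 and 66088 in NPCs (log2 fold change 2.90 ± 0.32 SE), of which its pair with the nearby FOR447 (2.64 kb) held 38.8%, 36.6%, 82.2% and 80.2%. REV088 at 415 kb had 3483 and 1424 reads in ES cells and 19644 and 81538 in NPCs (log2 fold change 2.90 ± 0.34 SE), and 69 of its 70 tested pairs had a positive fold change. FOR034 at 137 kb had 21412 and 7742 reads in ES cells and 157628 and 378166 in NPCs (log2 fold change 2.89 ± 0.40 SE), with 63.4% and 58.5% of its NPC reads in FOR034-REV025. In all 4 fragments, both NPC libraries lay above both ES libraries.

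Gains of REV025 were spread over distance but not over all of its partners. Of its 82 pairs, all tested, 20 were called higher in NPCs, a single one was higher in ES cells, and 63 had a positive fold change. From 10 to 50 kb its 9 pairs summed to 20991 and 11237 scaled reads in ES cells and 265875 and 290027 in NPCs. From 50 to 100 kb its 8 pairs had a median log2 fold change of -0.52, and the pair called higher in ES cells, FOR004-REV025 (93.3 kb), had 1088 and 386 reads in ES cells and 171 and 296 in NPCs (log2 fold change -2.66 ± 0.55 SE, edgeR adjusted p = 0.0359). From 500 to 1000 kb its 39 pairs summed to 3333 and 1941 scaled reads in ES cells and 15014 and 13674 in NPCs, and 10 were called higher in NPCs. The largest changes were with FOR063 (above), FOR021 (15.3 kb; 7874 and 2695 reads against 240248 and 530995, log2 fold change 5.14 ± 0.99 SE) and FOR034 (31.3 kb; 3881 and 1363 against 99858 and 221380, log2 fold change 4.89 ± 0.89 SE). Of the 7 other fragments within 30 kb of REV025, 2 were called higher in NPCs: FOR021 (log2 fold change 2.35 ± 0.53 SE) and FOR027 (2.34 ± 0.39 SE). The others had log2 fold changes from -0.33 to 0.78 and were not called. The lowest of them, FOR024, had 76.6 to 98.6% of its reads in FOR024-REV005. Without the 3 largest pairs its log2 fold change was 1.35 ± 0.40 SE (edgeR adjusted p = 0.00655). FOR021 and FOR027 are forward fragments, so their sums contain their own pairs with REV025.

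Among the fragments higher in ES cells, FOR173 at 788 kb changed most. It had 6972 and 4677 reads in ES cells and 1325 and 1101 in NPCs, or 3733 and 4677 scaled reads against 566 and 217 (log2 fold change -3.43 ± 0.43 SE, edgeR adjusted p = 8.97e-07). Of its 41 tested pairs, 40 had a negative fold change and 22 were called. FOR387 at 1622 kb had 8064 and 2934 reads in ES cells and 1535 and 1542 in NPCs (log2 fold change -2.92 ± 0.42 SE), and all 29 of its tested pairs were negative. REV227 at 1008 kb had 7923 and 4556 reads in ES cells and 1714 and 2535 in NPCs (log2 fold change -2.84 ± 0.36 SE). REV452 at 1875 kb had 3729 and 1446 reads in ES cells and 578 and 1318 in NPCs (log2 fold change -2.76 ± 0.50 SE). In all 4 fragments, both NPC libraries had fewer scaled reads than both ES libraries. Opposite changes occurred within short stretches: of the 11 other fragments within 30 kb of FOR173, 3 were called higher in NPCs against 4 higher in ES cells. Along the region, the log2 fold changes of neighbouring fragments correlated with r = 0.186 over 298 neighbouring pairs, which share reads.

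**Figure D4:**
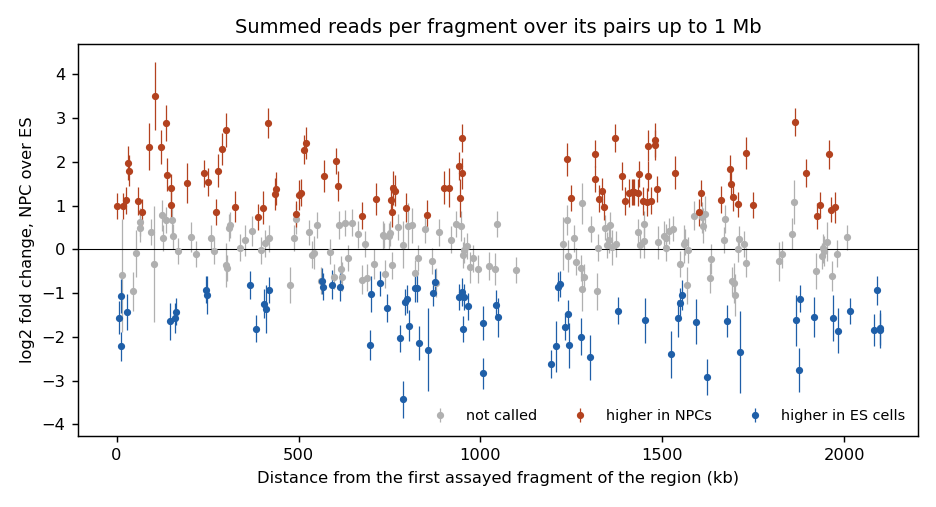
The log2 fold change, NPC over ES, of the reads of each of the 299 fragments summed over its pairs up to 1 Mb (vertical axis; bars are SE from edgeR), against its distance from the first fragment (horizontal axis, kb). Called fragments of both directions lie side by side over the whole span, from 3.51 at REV025 (106 kb) to -3.43 at FOR173 (788 kb).

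By stretches of 300 kb, fragments higher in NPCs were most frequent at 0 to 300 kb (20 of 47, against 9 higher in ES cells) and at 1200 to 1500 kb (24 of 57, against 10). Between 600 and 900 kb, 10 of 53 were higher in NPCs against 16 higher in ES cells, and between 900 and 1200 kb 6 and 10 of 29. Fragments higher in ES cells also outnumbered the others between 1800 and 2100 kb (11 of 30, against 7). The remaining stretches leaned towards NPCs, with 13 against 8 of 40 at 300 to 600 kb and 10 against 8 of 43 at 1500 to 1800 kb. Median log2 fold changes were 0.63 at 0 to 300 kb and 0.50 at 1200 to 1500 kb. They were -0.20 at 600 to 900 kb, -0.39 at 900 to 1200 kb and -0.13 at 1800 to 2100 kb. Among forward fragments 45 of 147 rose and 46 fell, and among reverse fragments 45 of 152 rose and 26 fell.

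The 4 fragments of the 2 largest pairs depended on those pairs. FOR406 and REV190 were called higher in ES cells with all pairs, with log2 fold changes of -2.35 ± 0.94 SE and -2.29 ± 0.94 SE (edgeR adjusted p = 0.0379 and 0.0433). Without the 3 largest pairs they had values of -0.21 ± 0.33 SE and -0.16 ± 0.34 SE (edgeR adjusted p = 0.622 and 0.720). Their common pair held 92.3 to 99.5% of the reads of either fragment in each library. For FOR024 the log2 fold change went from -0.33 ± 1.33 SE (edgeR adjusted p = 0.848) to 1.35 ± 0.40 SE (edgeR adjusted p = 0.00655), from 44405 and 29284 reads in ES cells and 145231 and 360301 in NPCs without the 3 pairs. For REV005 it went from -0.60 ± 1.29 SE to 0.57 ± 0.30 SE, and neither value passed the test.

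Called pairs were set beside the calls of their fragments. Of the 448 pairs higher in NPCs, 439 (98.0%) had an end on a fragment called higher in NPCs, beside 6143 (56.9%) of the 10800 pairs tested, and 5 had an end on a fragment called higher in ES cells. Of the 320 pairs higher in ES cells, 293 (91.6%) had an end on a fragment called higher in ES cells, beside 3843 (35.6%) of those tested, and 48 had one on a fragment called higher in NPCs. These counts use the same reads on both sides and are given as a description. FOR326 at 1369 kb had the most calls, 32 of 89 tested pairs, all higher in NPCs, and its 123 pairs summed to 4996 and 2545 reads in ES cells and 28252 and 93863 in NPCs. REV207 at 950 kb had 26 of 91 and REV088 24 of 70. On the other side, FOR281 at 1195 kb had 31 of 110, all higher in ES cells, with 52854 and 27015 reads in ES cells and 10469 and 22717 in NPCs. REV171 had 26 of 90 and FOR078 at 384 kb 24 of 73. All 3 of the fragments within 30 kb of FOR281 were called higher in ES cells too, whereas of the 10 within 30 kb of FOR326, 3 were called higher in NPCs against 1 higher in ES cells.

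A further comparison removed the level of each fragment. For each library, the expected log2(reads + 1) of a pair was set from its distance and from the typical level of its 2 fragments, and what remained (the residual, in log2 units) was averaged in windows of 60 by 60 kb with at least 4 pairs. Of 413 windows up to 1 Mb, 7 (1.69%; 2.78% of all windows tested) were higher in NPCs against 14 (3.39%; 4.61% of all windows tested) higher in ES cells at a limma adjusted p under 0.05, and 117 had an unadjusted p under 0.05. The windows higher in NPCs lay at most 180 kb apart. Of those higher in ES cells, 9 joined windows at least 480 kb apart and 5 windows less than 200 kb apart. From 500 to 1000 kb, 27.4% and 33.5% of pairs had 0 reads in the NPC libraries, against 11.4% and 15.6% in the ES libraries. How far such pairs moved the residuals at long distance was not tested. The median difference was -0.03 over the 120 windows up to 180 kb apart and -0.17 over the 178 windows at least 480 kb apart. The counts of windows also moved widely with one library left out, as given at the end. Here too the spread then came from the other group alone.

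Between 1320 and 1620 kb, 4 windows near each other were higher in NPCs. The window of 1320 to 1380 with 1380 to 1440 kb (65 pairs) had mean residuals of -0.13 and -0.12 in ES cells and 0.56 and 0.75 in NPCs, a difference of 0.78 ± 0.11 SE (limma adjusted p = 0.0298). Within 1380 to 1440 kb (25 pairs) the values were -0.10 and -0.05 in ES cells and 0.55 and 0.62 in NPCs (difference 0.67 ± 0.13 SE). From 1440 to 1500 kb, the windows with 1500 to 1560 and with 1560 to 1620 kb had differences of 0.57 and 0.58. The scaled reads of the first of these windows went the same way, with 8029 and 5839 in ES cells and 14717 and 22029 in NPCs. Near 480 kb, the window of 420 to 480 with 480 to 540 kb (14 pairs) went from 0.21 and 0.20 in ES cells to 0.96 and 1.17 in NPCs (difference 0.86 ± 0.17 SE), with 6507 and 3711 scaled reads against 16432 and 23348. In that window FOR112-REV096 held 39.8% of the reads. Close to the start, the window of 60 to 120 with 240 to 300 kb had residuals of 0.12 and 0.23 in ES cells and 0.76 and 0.85 in NPCs (difference 0.63 ± 0.12 SE), and FOR021-REV054 held 51.3% of its reads.

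Of the 4 named windows higher in ES cells, 3 had fewer than 1000 reads in every library. The window of 540 to 600 with 1380 to 1440 kb (45 pairs) had residuals of -0.20 and -0.31 in ES cells and -1.01 and -1.33 in NPCs (difference -0.92 ± 0.14 SE, limma adjusted p = 0.0354). Its 3 called neighbours between 480 and 600 kb on one side and 1320 and 1500 kb on the other had differences from -0.79 to -0.54. The scaled reads of the first window, 199 and 153 in ES cells and 196 and 282 in NPCs, did not fall, so this difference is one in the residual only. The window of 1440 to 1500 with 1980 to 2040 kb (18 pairs) had residuals of -0.17 and -0.29 in ES cells and -1.14 and -1.04 in NPCs (difference -0.86 ± 0.15 SE), and its scaled reads were also lower in NPCs, 111 and 121 against 60.6 and 76.7. The next window, 1440 to 1500 with 2040 to 2100 kb, had 0.21 and 0.09 in ES cells and -0.65 and -0.71 in NPCs (difference -0.83 ± 0.13 SE), while its scaled reads overlapped. In the window of 60 to 120 with 900 to 960 kb (52 pairs) the residuals fell from -0.16 and -0.17 to -1.0 and -0.97 (difference -0.82 ± 0.10 SE), whereas the scaled reads were higher in NPCs, 1064 and 816 against 3665 and 4151. The window's largest pair, FOR021-REV203, held 29.2% of its reads, and why the 2 measures differ was not tested. Closer together, windows between 780 and 1080 kb were higher in ES cells in 3 cases, with differences from -0.75 to -0.53.

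**Figure D5:**
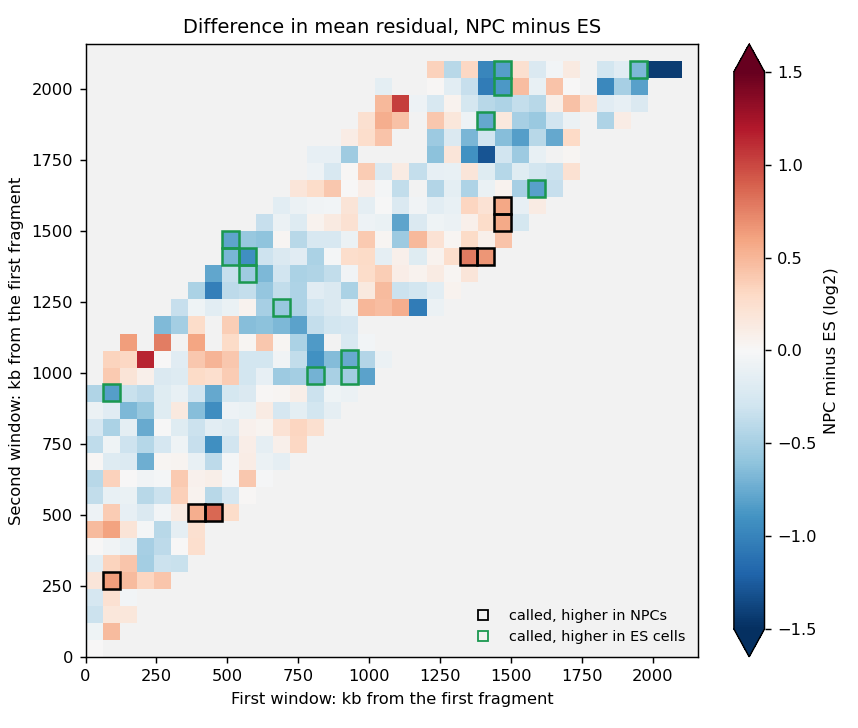
Difference in mean residual, NPC minus ES (colour, log2 units), for windows of 60 by 60 kb with at least 4 pairs up to 1 Mb, with the first window on the horizontal and the second on the vertical axis (kb from the first fragment). The 7 windows called higher in NPCs (black outlines) lie near the diagonal, and 9 of the 14 called higher in ES cells (green outlines) lie at least 480 kb off it.

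Other pairs were above expectation in both cell types. A residual of at least 1, that is 2 times the expected level, was found in all 4 libraries for 505 of the 16574 pairs. Pairs with an edgeR call were then left out, which kept 475 pairs without a call, tested or not. FOR186-REV054 was among those left out, with residuals of 10.8 and 10.1 in ES cells and 8.03 and 9.25 in NPCs. Of the 475, 431 were at 50 kb or more. The same count was not set beside the other regions, so it is not known to be particular to Oct4. They used 129 forward and 126 reverse fragments, most often FOR112 (19 pairs), REV203 (16), REV108 (15) and REV113 (15). Their share of pairs was 6.02% from 50 to 100 kb and 2.10% from 500 to 1000 kb. The authors' deposited p-values, from their own model of expected reads, were under 0.05 in all 4 libraries for 136 pairs, and 119 of these (87.5%) were among the 475 (25.1% of the 475). Among these 475 pairs, the highest residuals at 50 kb or more belonged to FOR406-REV190 (16.3, 15.9, 14.4 and 15.1 log2 units), followed by FOR354-REV116, FOR024-REV005 and FOR301-REV437 (7.30 or more in each library). FOR406-REV172 (926 kb) came next with only 144 and 583 reads in ES cells and 216 and 290 in NPCs, since its expected level was low, and its residuals were 7.61, 8.91, 7.15 and 7.05. The authors' ratio of observed to expected reads for FOR406-REV190 was 28068 and 29038 in ES cells and 11688 and 16411 in NPCs.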

How the data were processed

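The deposited table gives, for each forward and reverse fragment pair of 7 regions and each of the 4 5C libraries, raw read counts as deposited by the authors, per the file headers. It also holds the authors' predicted reads, a signal from their model, the ratio of raw to predicted reads, and a p-value for each pair, per the file headers. Reads were aligned with Bowtie, per the submitters' processing notes, and its version and the model's settings are not given in the sources used here. Where a pair had reads, the ratio equalled raw over predicted reads, and at 0 reads it equalled 0.25 over predicted reads (tolerance 0.001). Of the 66296 values of these pairs, 5 were off, all of them with reads. For this reason 8 further per-library columns were not used. CTCF and Smc1 peaks, lacking fragment positions on the same genome, were not analysed here.

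From the counts, pairs with a mean of at least 10 reads were fitted with edgeR 4.0.16 (R 4.3.3; TMM factors, quasi-likelihood test, Benjamini-Hochberg adjustment over all 46967 pairs, threshold 0.05). Reads summed per fragment over pairs up to 1 Mb (mean of at least 100) were fitted likewise. Window means of residuals (log2(reads + 1) minus a lowess fit of span 0.3 on log10 distance and median fragment effects, 5 rounds per region and library; at least 4 pairs) were tested with limma 3.58.1. DESeq2 1.42.0 was an alternative. TMM was first computed over all pairs before the filter on reads, as the written plan had it. After the calls were seen (377 higher in NPCs and 153 in ES cells) it was computed over the pairs that pass the filter, which is the usual order in edgeR, and both results are given. The steps were tested on simulated data.

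Named pairs are the 6 largest by summed reads, the 5 called pairs of lowest p and the 5 of largest fold change with at least 10 reads in each library, in each direction and without overlap of the groups, the 5 highest lowest residuals at 50 kb or more among pairs above expectation in all 4 libraries and without a call, and the 2 nearest the limit with most reads on each side. Named fragments and windows are the 4 with the largest change in each direction. Members, lists and named pairs were chosen with earlier results of these data known. Depth ran from 8236666 to 42673906 reads a library.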

Additional observations from a re-analysis of the deposited data

How the results depend on the processing

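With 2 libraries a group, counts of called pairs moved by more than 1.5 times with many choices, and the causes were not tested. A fit with one library left out has 1 library in a group, so its spread comes from the other group alone. Called pairs, first those higher in NPCs, then those higher in ES cells, numbered 448 and 320 as reported, 188 and 348 with library totals, 310 and 1173 with totals without the 3 largest pairs, 377 and 153 with TMM over all pairs before the count filter (added after seeing the data), 1191 and 766 with DESeq2, 786 and 587 with limma, 539 and 815 with a mean of at least 50 reads, 1218 and 601 with no filter, 788 and 863 after thinning, and 0 and 0 with an offset for each fragment, where 666 of the 768 calls kept their sign. Leaving out one library gave 11 to 2516 and 5 to 2444. Fragments numbered 90 and 72 as reported, 35 and 46 with library totals, and 58 to 99 and 32 to 71 with one library left out. Windows numbered 7 and 14 as reported, 62 and 50 with distance alone as the expectation, 83 and 65 with edgeR on summed reads, 13 and 37 with a pseudocount of 5, 0 and 1 in windows of 40 kb, and 0 to 56 and 0 to 147 with one library left out.

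The labels do not say whether libraries of the same replicate number belong together. Deviations of same-numbered libraries correlated at -0.139 over the 46967 pairs tested and -0.108 over the 10800. With 2 libraries a group and pairs that are not independent, these values cannot decide it. In a fit that held the replicate number as a block, 569 and 426 pairs, 78 and 63 fragments and 0 and 0 windows were called (103 windows at an unadjusted p under 0.05). A crossed replicate block, added after seeing the data, gave 809 and 442 pairs, 102 and 78 fragments and 3 and 11 windows.

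Some signs turned. The log2 fold change of FOR024-REV005 (-0.24) was 0.0633 with TMM before the filter and 0.0633 with no filter, and ran from -0.864 to 0.173 with one library left out, above 0 when ES replicate 2 (0.17) or NPC replicate 1 was the one. That of the fragment FOR024 (-0.33) was 1.35 without the 3 largest pairs and ran from -0.78 to 0.33 with one library left out, and that of REV005 (-0.60) was 0.57 and ran from -1.10 to 0.0900. Without NPC replicate 1, FOR024 was at 0.00414. FOR173-REV171 (-4.16) was 1.33 with the offset for each fragment. The window of 540 to 600 with 1380 to 1440 kb was at 0.0598 with edgeR on summed reads, and that of 60 to 120 with 900 to 960 kb was at 0.37 with distance alone and 1.68 with edgeR on summed reads. REV025 kept its direction in the 10 other settings and lost its call in one, without NPC replicate 2 (3.49, edgeR adjusted p = 0.0807).

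The difference in slope (-0.105) was -0.252 with a pseudocount of 0.1, -0.0378 without pairs at 0 reads, -0.177 up to 500 kb, -0.0584 with library totals and -0.144 to -0.0654 with one library left out. Differences in shares by distance without the 3 largest pairs were -1.51 percentage points under 10 kb, 0.67 from 50 to 100 kb, -0.0901 from 100 to 250 kb, -1.11 from 250 to 500 kb and -5.77 from 500 to 1000 kb. Pairs above expectation in all 4 libraries, with called pairs left out, numbered 475. Other settings gave 162 at a residual of 1.5 and 2834 with distance alone. The share of reads in the largest 1, 5 and 10 pairs was 40.1, 53.3 and 54.4% in ES replicate 1, 49.5, 75.8 and 76.3% in ES replicate 2, 27.1, 41.2 and 46.5% in NPC replicate 1 and 37.2, 50.6 and 54.5% in NPC replicate 2. In fits of single pairs over all 4 libraries, pairs under 10 reads on average were tested only with no filter. With one library left out, the mean was taken over the libraries kept. Fragment sums, residuals, windows and the main slopes used pairs of any read count.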
